A study of Homo sapiens with 4 samples.

Results

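The genes described here encode extracellular proteases and the proteins that inhibit or dock them: the matrix metalloproteinase genes MMP1, MMP7 and MMP14, their inhibitors TIMP1 and TIMP2, the plasminogen activators PLAU and PLAT, the receptor PLAUR and the serine protease inhibitor SERPINE2. They were chosen by symbol, as all probe sets that the platform annotation assigns to one of these 9 genes. This gave 18 of the 54675 probe sets on the array and 9 of the 19775 genes that have a probe set naming a single gene. None of the 18 probe sets was shared with another gene in the annotation.

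Expression was measured on 4 Affymetrix arrays of total RNA from the established colon cancer cell lines HT29 and Colo205. For each line there was 1 array of the parental cells and 1 of a PLX4720-resistant derivative, named HT29RC and Colo205RC. PLX4720 inhibits the kinase BRAF. The derivatives were selected from partially sensitive cells in rising drug concentrations, all cells were grown in medium with 10% serum, and the resistant cells were without drug for 24 h before harvest, so that every array shows cells in the absence of PLX4720. The series calls the derivatives clones, and each line and status is a single culture as far as the labels say. No spread between replicates exists within a line and status. P-values rest on how far the 2 lines agree and on a variance that the test, limma, pools over all genes. The pooled part carries the larger weight, with a prior of 2.54 degrees of freedom against 1 residual. A limma SE is therefore not the spread of the 2 pairs alone. What was common to both derivatives other than resistance, such as long culture, cannot be told apart from resistance.

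Values are log2 expression as deposited. A gene was kept when the highest of its 4 readings reached 5.73, which is the median over every reading in the table. This kept 13651 of the 19775 genes and 8 of the 9 described here. PLAT was not kept, and MMP1 was kept through 1 array only. A reading below 5.73 was not shown to lie above background. Array medians lay within 0.05 of each other. The 24 poly-A spike control probe sets, RNAs added to each sample in set amounts, were lower on both resistant arrays than on those of the parents. Their median differences were -0.43 in HT29 and -0.72 in Colo205, and their part in the differences below was not tested. Intestinal epithelial markers were present on all arrays, with 10, 12, 10 and 11 of 12 at 5.73 or more in parental HT29, resistant HT29, parental Colo205 and resistant Colo205. Their summed levels were 126.7, 139.7, 128.5 and 132.0 in that order. CDH17, the intestinal cadherin, read 5.30 in parental HT29 and 11.24 in its derivative, and KRT20 read 4.79 and 3.95 in the Colo205 pair, below 5.73. Of 7 fibroblast markers 3 reached it on each array, with the summed level of the list between 36.9 and 39.8. COL1A1, at 7.23 to 7.45, and DCN, at 5.73 to 5.97, reached it on all 4 arrays, whereas COL3A1 and PDGFRA lay below it on all 4. LUM read 5.14 in parental and 6.80 in resistant HT29. Of 7 leukocyte markers 3 reached it in each HT29 array and 2 in each Colo205 array, with summed levels between 37.0 and 38.8. CD79A and ITGAM reached it on all 4 arrays, whereas PTPRC lay below it throughout. Of 4 endothelial markers 2 reached it in resistant HT29 and 1 on the other arrays, with summed levels between 18.8 and 21.1. The part of these cell types in the differences was not tested.

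Matrix metalloproteinases are zinc enzymes, made as inactive precursors, that cut collagens and other matrix proteins. TIMP proteins bind their active sites and block them. In the parallel serine protease pathway, urokinase (PLAU) and tissue plasminogen activator (PLAT) turn plasminogen into plasmin, which degrades fibrin and matrix and can activate metalloproteinase precursors. The receptor PLAUR holds urokinase at the cell surface, and SERPINE2, also called protease nexin-1, inactivates thrombin, urokinase and plasmin. In colon tumours MMP7 is known as a product of the epithelial cells themselves, whereas MMP1 and PLAU are often made by stromal cells as well. Transcription of several of these genes is known to respond to ERK signalling through AP-1 and ETS factors.

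Windows before the start sites were looked up for all of these genes except PLAT. The RefSeq table of assembly GRCh38.p14 held full-length windows for 6 of them, and none for MMP1 or TIMP2. These were 8 windows in all, because PLAU and SERPINE2 have several starts. The 250 bases before the start were searched on both strands for TGANTCA, the palindromic AP-1 motif, for TATAAA, the TATA box, and for GGGCGG, the SP1 motif. The motifs did not overlap in these windows. Sequences are shown for MMP7, PLAUR and TIMP1, which read higher in both resistant lines and differ in exact motif matches before their starts. The upstream SERPINE2 start is shown as that of the gene with a 2-fold or larger difference in both lines. Each is written 5′ to 3′ on the strand of the gene, with motif matches in capitals. They cover chr11:102530748-102530997 (minus strand) for MMP7, chr19:43670170-43670419 (minus strand) for PLAUR, chrX:47582186-47582435 (plus strand) for TIMP1 and chr2:224038641-224038890 (minus strand) for SERPINE2.
MMP7: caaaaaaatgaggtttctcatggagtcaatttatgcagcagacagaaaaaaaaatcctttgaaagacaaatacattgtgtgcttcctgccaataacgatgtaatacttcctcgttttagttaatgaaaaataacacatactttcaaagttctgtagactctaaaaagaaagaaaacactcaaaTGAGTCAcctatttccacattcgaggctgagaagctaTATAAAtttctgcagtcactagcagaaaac
PLAUR: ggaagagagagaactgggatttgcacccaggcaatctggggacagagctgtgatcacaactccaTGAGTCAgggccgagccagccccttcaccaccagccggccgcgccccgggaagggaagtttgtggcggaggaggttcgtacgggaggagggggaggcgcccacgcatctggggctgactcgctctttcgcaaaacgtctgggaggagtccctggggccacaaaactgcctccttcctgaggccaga
TIMP1: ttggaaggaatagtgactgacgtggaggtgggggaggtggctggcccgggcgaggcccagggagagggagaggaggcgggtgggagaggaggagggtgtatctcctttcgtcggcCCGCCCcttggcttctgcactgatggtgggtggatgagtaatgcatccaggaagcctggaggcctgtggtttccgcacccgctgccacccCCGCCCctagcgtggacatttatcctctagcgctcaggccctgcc
SERPINE2: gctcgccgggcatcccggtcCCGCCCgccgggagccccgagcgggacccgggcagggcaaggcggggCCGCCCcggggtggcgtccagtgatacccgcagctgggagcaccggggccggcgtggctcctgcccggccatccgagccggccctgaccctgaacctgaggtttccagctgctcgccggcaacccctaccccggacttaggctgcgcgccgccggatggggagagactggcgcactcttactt

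The AP-1 motif stood 67 bases before the MMP7 start and 186 bases before the PLAUR start, as TGAGTCA in both. It was found in 2 of the 8 windows, and 6.57% of all 35116 windows of this length held a match. MMP7 also had the TATA box, 30 bases before its start, which 10.7% of all windows held. The SP1 motif was found in 5 of the 8 windows, with 2 matches each in the TIMP1 and the upstream SERPINE2 window and 3 in a PLAU window, and in 42.6% of all windows. Only exact matches were counted. TGAGTAA, which stands in the TIMP1 window, is close to the AP-1 motif and was not counted. A match describes these letters and is not a measured binding site.

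MMP1, interstitial collagenase, read 3.89 in parental HT29, 7.67 in resistant HT29, 3.83 in parental Colo205 and 3.45 in resistant Colo205. Resistant HT29 was the only array on which it reached the filter value, and both parents lay below it. In RNA from a whole culture, more cells expressing a gene and more RNA per cell cannot be told apart. The log2 difference, resistant minus parental, was 3.78 in HT29 and -0.38 in Colo205 as deposited. Neither has an exact size. Against the filter value in place of the parent's reading, MMP1 was higher by 1.94 in resistant HT29, or at least 3.85-fold higher, and no direction can be read in Colo205. MMP1 has 1 probe set, so its difference has no second reading on these arrays.

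MMP7, matrilysin, which lacks the hemopexin domain of most of the family, read 10.56 in HT29 parental cells and 11.99 in the derivative. In Colo205 it read 5.70 and 6.40, just below the filter value in the parent. Both HT29 arrays were high and both Colo205 arrays low, and in each line the resistant array was the higher. The difference was 1.43 in HT29, or 2.70-fold, and 0.70 in Colo205, or 0.67 with the parent's reading set to the filter value. Over both lines the mean difference was 1.06 ± 0.25 (limma SE, 2 pairs), with a 95% interval from 0.35 to 1.78 and an unadjusted p = 0.0161 (limma, two-sided).

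MMP14, a membrane-bound metalloproteinase that activates the MMP2 precursor, read 7.05 and 7.27 in the HT29 pair and 8.04 and 8.04 in the Colo205 pair. It was the flattest of the 8 genes, with differences of 0.23 and -0.01. Its 4 probe sets spanned 0.23 to 0.49 for HT29, and -0.06 to 0.08 for Colo205. The mean difference of 0.11 had a limma 95% interval from -0.36 to 0.58, so that a change of up to 0.58 is within its error. MMP2 itself, which was among the other genes of the metalloproteinase list, read 5.49 and 5.74 in HT29 and 5.24 and 5.21 in Colo205.

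**Figure D1:**
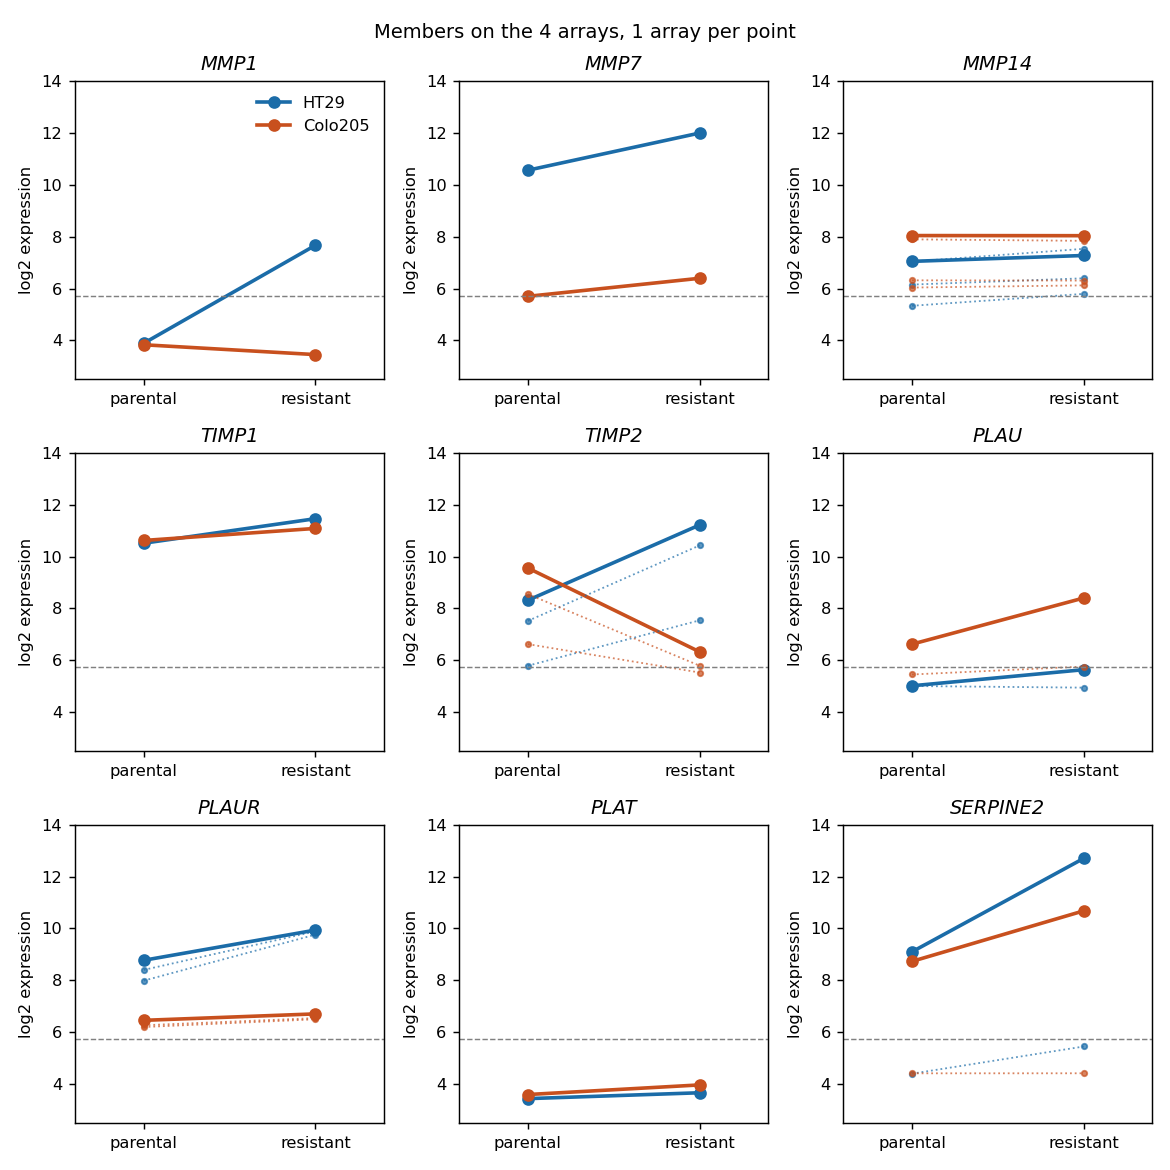
Log2 expression (vertical axis) of each gene on the parental and resistant arrays, 1 array per point, with HT29 in blue and Colo205 in orange. Thick lines join the readings of the probe set that stands for the gene, dotted lines those of its other probe sets, and the grey dashed line marks the filter value of 5.73. TIMP2 runs in opposite directions in the lines, 8.32 to 11.22 for HT29 and 9.56 to 6.33 for Colo205.

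TIMP2, which inhibits most metalloproteinases and, with MMP14, takes part in activating MMP2, differed in opposite directions. It read 8.32 in parental HT29 and 11.22 in its derivative, against 9.56 in parental Colo205 and 6.33 in its derivative. HT29 minus Colo205 was -1.24 between the parents and 4.89 between the derivatives. The differences were 2.90 in HT29, or 7.48-fold higher, and -3.23 in Colo205, or 9.38-fold lower. All 3 probe sets showed this reversal. Their HT29 differences ran from 1.75 to 2.91, and their Colo205 differences ran from -3.23 to -1.09. The probe set with the smaller values read 5.79 and 7.54 in HT29 and 6.62 and 5.53 in Colo205. The mean over the lines, -0.16 with a limma 95% interval from -4.95 to 4.63, describes neither of them. Whether HT29 and Colo205 differ in this was not tested, since each pair is a single array on each side. TIMP2 was the 1 gene of the 8 that was 2-fold or more higher in HT29 and 2-fold or more lower in Colo205, as were 0.198% of all genes kept.

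TIMP1, a soluble inhibitor of the same family, read 10.52 and 11.46 in the HT29 pair and 10.62 and 11.09 in the Colo205 pair. The parents were within 0.11 of each other, and both derivatives were higher than both parents. The difference was 0.95 in HT29, or 1.93-fold, and 0.46 in Colo205, or 1.38-fold. The mean was 0.71 ± 0.20 (limma SE, 2 pairs), with a 95% interval from 0.13 to 1.28 and an unadjusted p = 0.0279 (limma).

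PLAU, urokinase, read 5.02 and 5.64 in the HT29 pair, both below the filter value, and 6.62 and 8.40 in the Colo205 pair. It reached the filter value in Colo205 only, and there the resistant array was 1.78 higher, or 3.43-fold. The HT29 difference of 0.62 lay between readings below the filter and has no exact size. The second PLAU probe set gave -0.06 in HT29 and 0.31 in Colo205, where it read 5.45 and 5.76, so that the size in Colo205 rests on 1 probe set. The median over both probe sets was 1.04 in Colo205 and 0.28 in HT29. The mean difference of 1.20 ± 0.34 (limma SE, 2 pairs) had a 95% interval from 0.20 to 2.20 and an unadjusted p = 0.0301 (limma), and rests in part on the HT29 readings below the filter. PLAT, the other plasminogen activator, has 1 probe set, which read 3.44 and 3.66 in HT29 and 3.59 and 3.96 in Colo205. All of these lie below the filter, and PLAT entered no comparison except the alternative limma run without a filter.

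PLAUR, the urokinase receptor, showed the reverse arrangement of PLAU, with both HT29 arrays above both Colo205 arrays. It read 8.77 and 9.93 in the HT29 pair and 6.45 and 6.70 in the Colo205 pair. The difference was 1.17 in HT29, or 2.24-fold, and 0.25 in Colo205, or 1.19-fold. Its 3 probe sets spanned 1.17 to 1.77 for HT29, and 0.25 to 0.30 for Colo205. The mean was 0.71 with a limma 95% interval from -0.13 to 1.54 and an unadjusted p = 0.0766. Resistant HT29 thus read 2.24-fold higher for the receptor with its ligand PLAU below the filter value. Resistant Colo205 read 3.43-fold higher for the ligand by 1 probe set, and the other PLAU probe set differed by 0.31 there.

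SERPINE2 was the 1 gene of the 8 that was 2-fold or more higher in both lines, as were 0.293% of all genes kept. Its HT29 readings were 9.10 for the parent and 12.70 for the derivative, and its Colo205 readings 8.73 and 10.68. The parents lay close together and both derivatives far above them. The difference was 3.60 in HT29, or 12.1-fold, and 1.95 in Colo205, or 3.86-fold. The mean difference of 2.77 ± 0.46 (limma SE, 2 pairs) had a 95% interval from 1.42 to 4.13 and an unadjusted p = 0.00578 (limma). The second SERPINE2 probe set lay below the filter on all 4 arrays. It read 4.40 and 5.45 in HT29 and 4.41 and 4.41 in Colo205. With the median over both probe sets the differences were 2.33 and 0.97, and the Colo205 value no longer reached 2-fold.

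**Figure D2:**
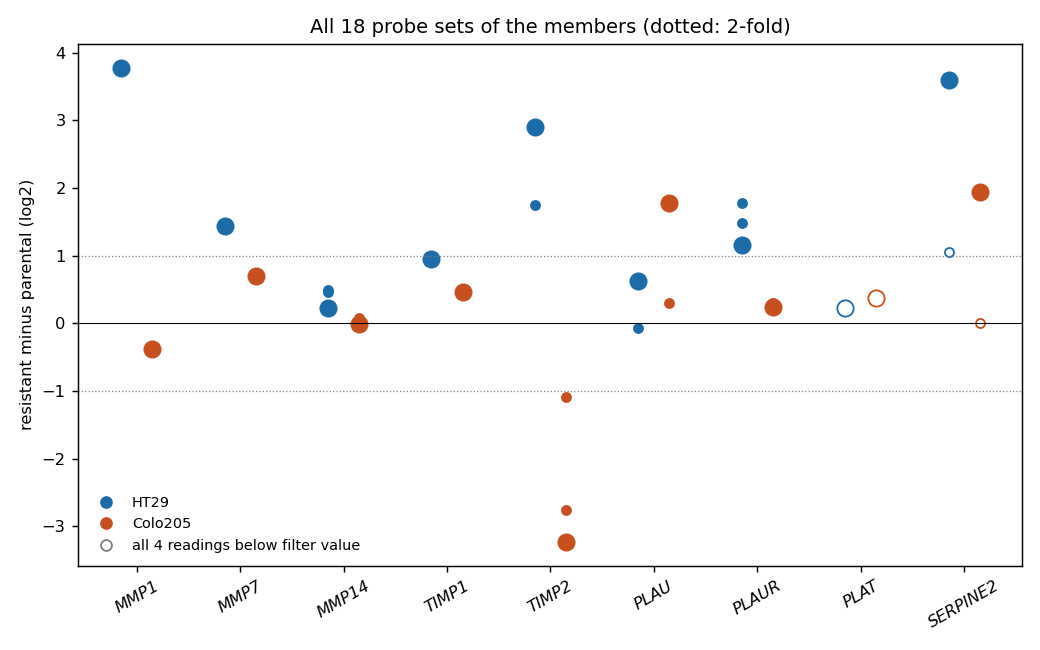
Log2 difference, resistant minus parental (vertical axis), of each of the 18 probe sets, by gene, in HT29 (blue) and Colo205 (orange). Large points are the probe sets that stand for their genes, and open points have all 4 readings below the filter value. The 3 TIMP2 probe sets lie above 0 in HT29 and below 0 in Colo205, and the 2 PLAU probe sets lie apart, at 1.78 and 0.31 in Colo205.

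Of the 8 genes kept, 5 were 2-fold or more higher in resistant HT29 (MMP1, MMP7, TIMP2, PLAUR and SERPINE2), where 3.42% of all genes kept were as high, and 0 were 2-fold or more lower, against 1.72%. In resistant Colo205, 2 were 2-fold or more higher (PLAU and SERPINE2), against 0.908% of all genes, and TIMP2 was lower, against 2.51%. The median difference of the 8 was 1.30 in HT29 and 0.36 in Colo205, beside -0.01 and -0.02 over all genes kept. The genes were picked with results of these arrays known, and MMP1 was kept only through the array on which it is high, so that these counts describe the choice as well as the cells. MMP7, TIMP1, PLAUR and SERPINE2 read higher in both derivatives, and TIMP2 in HT29 only. No direction can be read for PLAU in HT29 or MMP1 in Colo205, where both readings lie below the filter, nor for MMP14 in Colo205, where -0.01 turned to 0.09 under quantile normalization. Over 6614 genes with several probe sets, differences between probe sets of a gene had a pooled SD of 0.30 in each line. Probe sets of a gene share the same arrays, so that SD does not measure scatter between arrays or cultures. The PLAUR difference in Colo205 is within that SD, as are those of the MMP14 probe set that stands for the gene; 2 other MMP14 probe sets were at 0.49 and 0.46 in HT29. At 1.5-fold or more, 7 of the 8 were higher in HT29 (8.10% of all genes), PLAU among them on readings below the filter, and 0 lower (6.89%), and 3 were higher in Colo205 (2.99%) and 1 lower (7.78%).

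In limma's test over all 13651 genes with Benjamini-Hochberg adjustment, 0 of the 8 genes passed an adjusted p of 0.05, as did 0.00% of all genes. The adjusted p was 0.706 for MMP7, TIMP1, PLAU, PLAUR and SERPINE2, 0.726 for MMP1, 0.864 for MMP14 and 0.986 for TIMP2. At an unadjusted p under 0.05 there were 4 of the 8 (MMP7, TIMP1, PLAU and SERPINE2), against 6.80% of all genes. Without the cell line as a block that count was 2, and 0 passed adjusted.

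**Figure D3:**
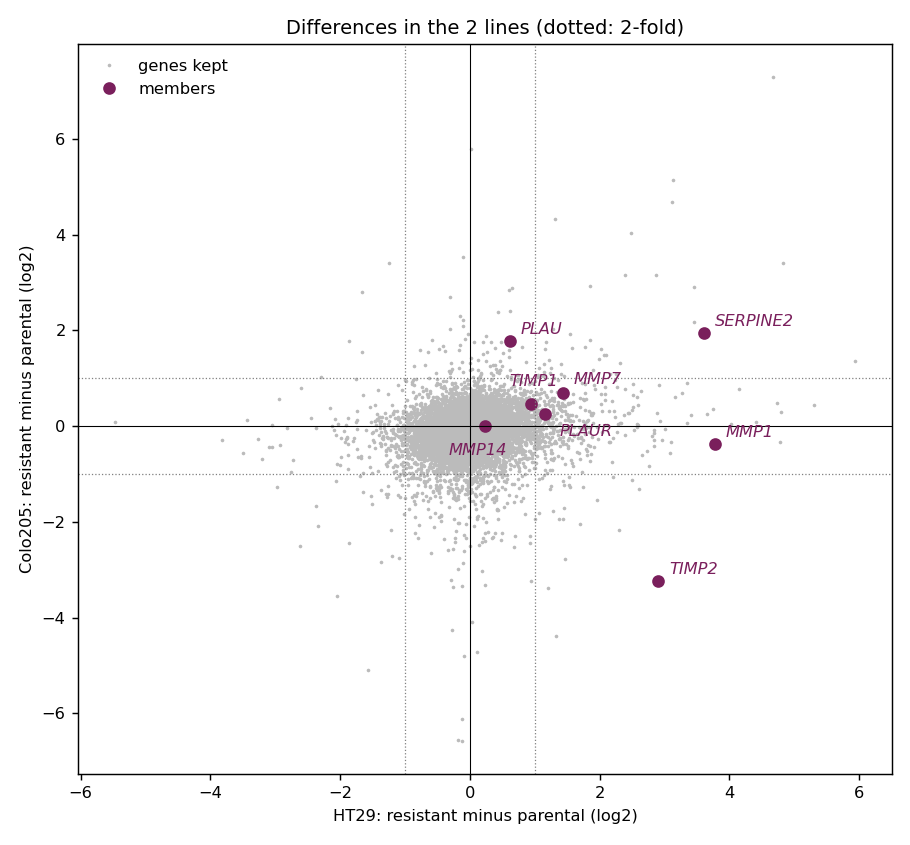
Log2 difference, resistant minus parental, in HT29 (horizontal axis) against that in Colo205 (vertical axis), with 1 grey point for each of the 13651 genes kept and the 8 genes described here in purple. SERPINE2 lies at 3.60 and 1.95, MMP1 at 3.78 and -0.38 (3 of its 4 readings below the filter) and TIMP2 at 2.90 and -3.23, outside the dotted lines that mark 2-fold in 1 or both lines.

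The cell lines themselves differed in some of these genes. The 2 arrays of a line are a parent and its own derivative, not independent replicates of that line. The limma p-values for the lines are therefore descriptive. Averaged over parental and resistant arrays, MMP7 was 5.23 ± 0.25 higher in HT29 than in Colo205 (limma SE, 2 arrays a line, adjusted p = 0.00872), and PLAUR was 2.77 ± 0.29 higher (limma, adjusted p = 0.0206). PLAU was lower in HT29, with a fitted difference of -2.19 (limma, adjusted p = 0.0393) that has no exact size, since both HT29 readings lie below the filter. With those set to the filter value the difference was -0.90 between the parents and -2.68 between the derivatives. These 3 of 8 passed the adjusted threshold, against 15.2% of all genes kept. MMP14 was lower in HT29 in both pairs, by -0.99 between the parents and -0.76 between the derivatives, and missed the threshold (limma, adjusted p = 0.0503). TIMP1 differed by 0.14 with a limma 95% interval from -0.44 to 0.71. MMP1 was above the filter in resistant HT29 alone, by 1.94. SERPINE2 parents differed by 0.37 and derivatives by 2.02, HT29 higher in each.

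For the lists below, the shares of all genes kept to set beside a count are 3.42% for 2-fold or more higher and 1.72% for lower in HT29, 0.908% and 2.51% in Colo205, and 6.80% at an unadjusted p under 0.05 in either direction. The wider protease families were described from lists of 22 metalloproteinase genes on the array, 12 of which were kept, and of related enzymes and inhibitors. Beyond MMP1, MMP7 and MMP14, the 9 other metalloproteinase genes kept spanned -0.40 to 0.38 for HT29 and -0.12 to 0.28 for Colo205, so that none reached 2-fold. Another 10 lay below the filter on all arrays, among them MMP3, MMP8, MMP10, MMP12 and MMP13, which lie in the same chromosome 11 cluster as MMP1 and MMP7. MMP10 read 4.50 and 5.40 in HT29. MMP2 and MMP10 are named after seeing their values. The list's medians were 0.17 and 0.10, and 0 of the 12 passed limma adjusted over all genes. At an unadjusted p under 0.05, 1 was higher, MMP7 itself, and 0 lower.

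Among the 5 metalloproteinase inhibitors, TIMP4 followed TIMP2 in sign, at 0.78 in HT29 and -1.56 in Colo205, where it read 7.29 and 5.73. TIMP3 was at 0.09 and 0.35, and RECK, a membrane-anchored inhibitor, at -0.08 and -0.01. Both TIMP3 and RECK were picked after seeing their values. The list's median was 0.78 in HT29 and -0.01 in Colo205, and 0 passed limma adjusted. Unadjusted, 1 was higher, TIMP1 itself, and 0 lower.

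The plasminogen activation list had 10 of 11 genes kept. The 7 others spanned -0.73 to 0.35 for HT29 and 0.03 to 0.73 for Colo205. ANXA2 and S100A10, which form a plasminogen-binding complex at the cell surface, were at 0.35 and 0.30 in HT29 and 0.27 and 0.62 in Colo205. The plasminogen receptor gene PLGRKT was at 0.28 and 0.19. These 3 were picked after seeing their values. The list had 8 of 10 genes higher in HT29 and 10 of 10 in Colo205, where 48.5% and 47.5% of all genes kept were higher. Medians were 0.29 and 0.31. Any value above 0 counted as higher. In Colo205 SERPINF2 at 0.03, PLG at 0.18, PLGRKT at 0.19, PLAUR at 0.25 and ANXA2 at 0.27 lay within the probe set SD of 0.30. PLAU, PLAUR and SERPINE2 are in these counts and were picked with results of these arrays known. PLAU has no readable direction in HT29. None of the 10 passed limma adjusted (0 genes), and 2 were higher and 0 lower unadjusted. Those 2 were PLAU and SERPINE2, so that no other gene of the list was among them.

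Of 18 ADAM and ADAMTS genes kept, 2 were 2-fold or more higher and 1 lower in HT29, and 1 higher and 0 lower in Colo205 (all genes 3.42%, 1.72%, 0.908% and 2.51%). ADAMTS15, a secreted proteoglycan-cleaving protease, was higher in both, reading 5.23 and 6.80 in HT29 and 6.19 and 7.83 in Colo205, differences of 1.57, from a parental reading below the filter, and 1.64 (limma, unadjusted p = 0.000796, adjusted p = 0.706). ADAM19 was at 1.11 and 0.36, and ADAMTS6 read 7.36 and 3.86 in HT29, the latter below the filter. In this list 0 passed adjusted in limma, with 2 higher and 0 lower unadjusted. Medians were 0.02 and 0.03.

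Membrane and secreted serine proteases had 5 of 26 genes 2-fold or more higher in HT29, against 3.42% of all genes, and 0 in Colo205, against 0.908%, where 2 were lower, against 2.51%. PRSS23 was at 1.80 and 0.11. The trypsinogen gene PRSS3 was at 1.77 and -0.17 and PRSS2 at 1.46 and -1.72; trypsinogen genes are near-identical in sequence, so that their probe sets can read each other. TMPRSS3, a membrane protease, was at -0.45 and -1.27. The list's medians were 0.15 and 0.18, with 0 adjusted in limma, and 3 higher and 1 lower unadjusted.

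On the list of serine protease inhibitors, 3 of 15 genes were 2-fold or more higher and 1 lower in HT29 (all genes 3.42% and 1.72%). In Colo205 3 were higher and 3 lower (all genes 0.908% and 2.51%). Whether the proteins of this list, maspin among them, inhibit proteases was not measured. SERPINB5, maspin, was higher in both, at 1.41 in HT29, where it read 10.13 and 11.55, and 1.30 in Colo205, where it read 10.82 and 12.11 (limma, unadjusted p = 0.00150, adjusted p = 0.706). PI3, elafin, was at 1.87 and 0.24, and SERPINB8 at 1.51 and 0.45. In Colo205 the trypsin inhibitor SPINK1 was at -4.10 and the leukocyte protease inhibitor SLPI at -2.52, whereas TFPI, the tissue factor pathway inhibitor, was at 1.34. SERPINB9, an inhibitor of granzyme B, was at -1.10 in HT29, with the derivative below the filter. The list's medians were 0.25 and 0.16, with 0 adjusted in limma, and 2 higher and 0 lower unadjusted.

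Cathepsins and cystatins had 2 of 19 genes 2-fold or more higher in HT29 (all genes 3.42%), the lysosomal proteases CTSL at 1.46 and CTSS at 1.36. In Colo205 1 was lower (all genes 2.51%), the cystatin gene CST7 at -1.90. Medians were -0.01 and 0.04, and 0 passed limma adjusted, with 1 higher and 1 lower unadjusted. The astacin list and the protease-activated receptor list each had 1 gene kept and none at 2-fold. Of the 12 AP-1 and ETS factors, FOSL1 was at 1.90 and 0.27 and ETS1 at 1.93 and 0.77, whereas FOS was at -1.42 and 0.24 and ETV5 at -1.11 and -0.60. The median was -0.18 in HT29 and -0.02 in Colo205. In limma 0 passed adjusted, and 1 was higher and 2 lower unadjusted.

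**Figure D4:**
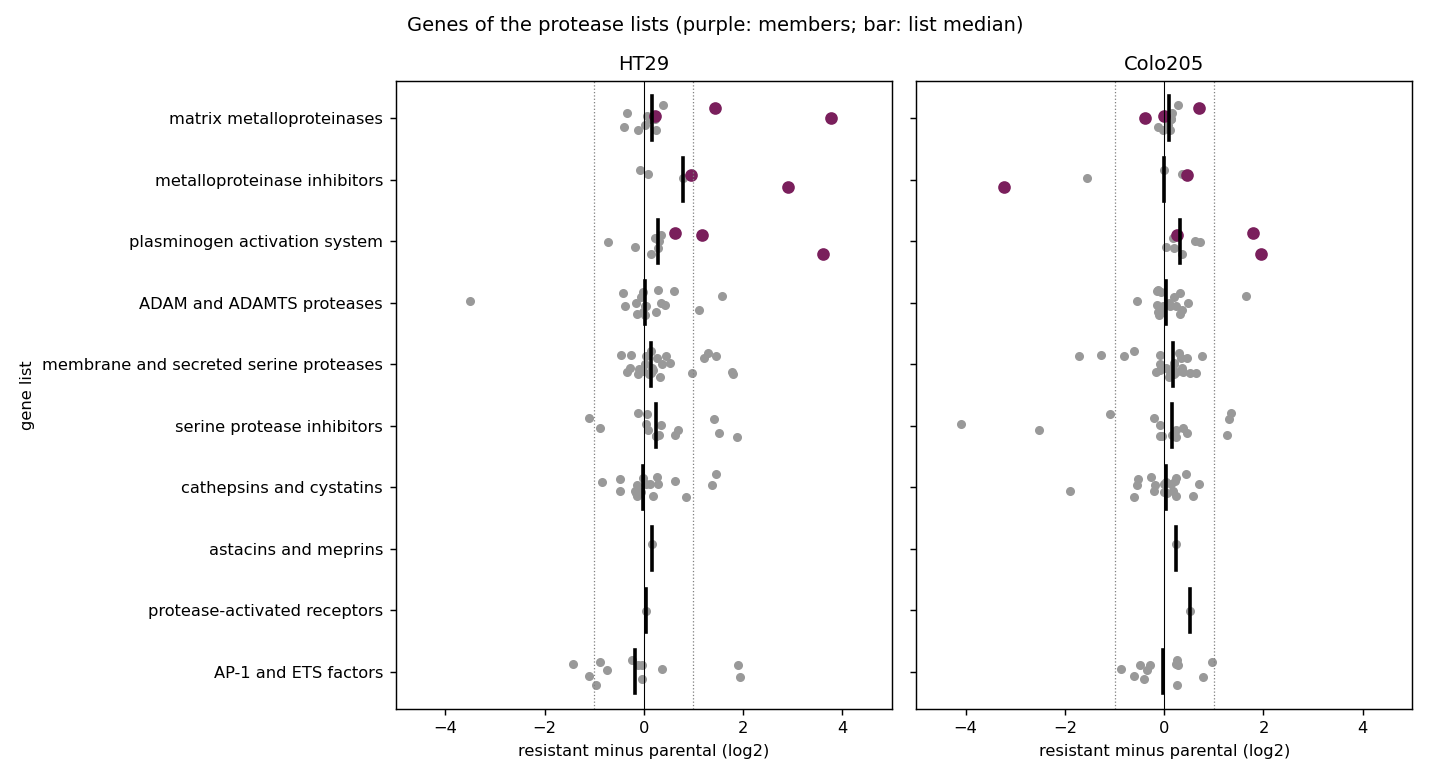
Log2 difference, resistant minus parental (horizontal axis), of each gene kept in 10 gene lists (rows), in HT29 (left) and Colo205 (right), with the 8 genes described here in purple, other genes in grey and a black bar at each list's median. In the metalloproteinase list MMP1 at 3.78 and MMP7 at 1.43 lie apart from the other genes in HT29, which reach 0.38.

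The neighbours of these genes along the chromosome are given by their medians. Beside counts among them, the shares of all genes kept are 3.42% for 2-fold or more higher in HT29 and 2.51% for lower in Colo205. The 10 kept genes on either side of TIMP2 on chromosome 17 had medians of 0.04 in HT29 and -0.15 in Colo205. They spanned -0.69 to 0.46 for HT29 and -1.74 to 0.42 for Colo205, where C17orf99 was 2-fold or more lower. Those around SERPINE2 on chromosome 2 had medians of 0.05 and 0.24. Of them 2 were 2-fold or more higher in HT29 and 2 lower in Colo205, CCL20 at -2.59 and SLC16A14 at -1.94. Those around MMP7 on chromosome 11, MMP1 among them, had medians of 0.31 and -0.11, and those around MMP1 on chromosome 11 had medians of 0.20 and -0.11. MMP7 was the kept gene next to MMP1 and the 1 of its 20 neighbours that was 2-fold or more higher in HT29. Around PLAU on chromosome 10 the medians were 0.04 and 0.00, and around PLAUR on chromosome 19 they were 0.02 and -0.05. They were -0.10 and -0.03 around MMP14 on chromosome 14, and -0.10 and 0.01 around TIMP1 on chromosome X.

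**Figure D5:**
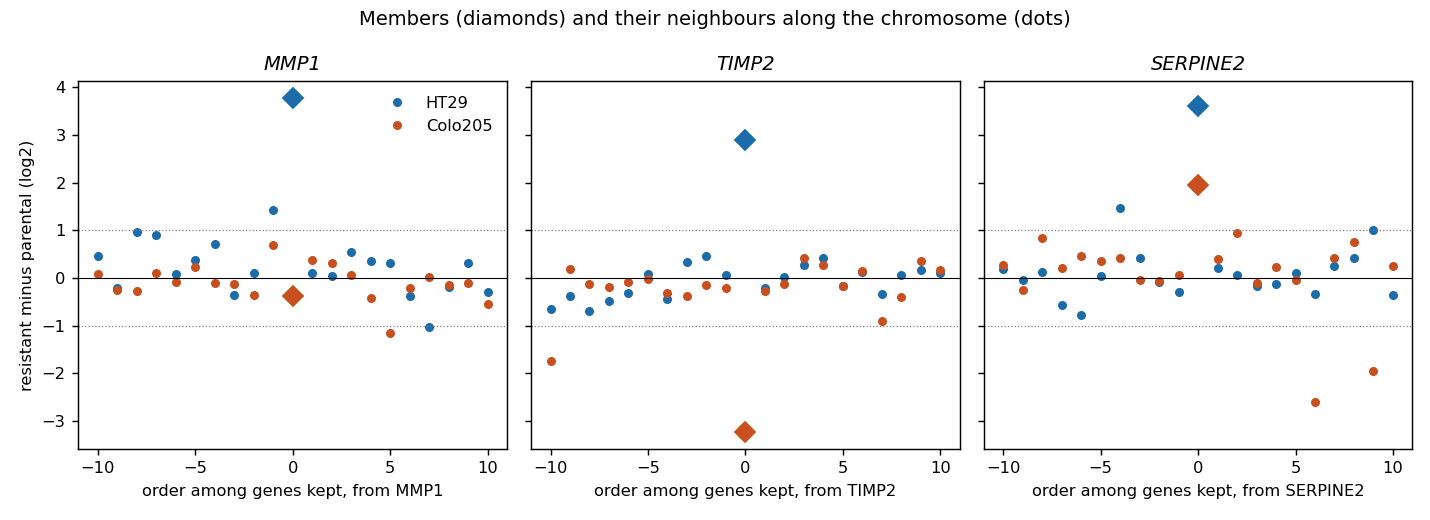
Log2 difference, resistant minus parental (vertical axis), of MMP1, TIMP2 and SERPINE2 (diamonds) and of the 10 kept genes on either side in chromosome order (dots), in HT29 (blue) and Colo205 (orange). The TIMP2 diamonds at 2.90 and -3.23 lie outside the range of its neighbours in both lines.

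By the distance between their 2 differences, the genes most like SERPINE2 were S100A2, a calcium-binding protein gene, at 3.46 and 2.18 (distance 0.27), the matrix protein gene TNC at 3.46 and 2.91 (0.97), and EPHX4 at 3.34 and 0.89 (1.09). No such genes are given for MMP1, whose differences rest on readings below the filter. Likeness over 2 differences is a description of these 4 arrays.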

How the data were processed

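The deposited table holds log2 expression values, summarised and normalised by the authors, for 54675 probe sets on 4 arrays. MAS5 and RMA appear in the submitters' processing notes, with no role or version, and how background was corrected is not stated there. The log2 scale was inferred from the range of the values, 2.51 to 14.88. Precision is limited by the number of arrays.

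Gene names came from the platform annotation; 41091 probe sets named 1 gene, and those naming several or none were left out. Entrez identifiers were set against RefSeq GRCh38.p14, which changed 0 symbols. The probe set of highest mean stood for its gene. The groups were parental and resistant, 2 arrays each, paired by cell line, with HT29 as replicate 1 and Colo205 as replicate 2. Differences were resistant minus parental log2 values, described at 2-fold. Both lines were tested with limma 3.58.1 in R 4.3.3, cell line as a block, with 1 residual degree of freedom and a prior of 2.54. Its estimated differences, and not its p-values, were checked on simulated data with the same change in both lines. P-values were adjusted by Benjamini-Hochberg over all genes kept, and the threshold was 0.05. Sequences were read in Python 3.11.15. The genes and lists were chosen with earlier results of these data known. Named genes were the 9 by rule and, from each list, genes 2-fold or more the same way in both lines and the 2 largest differences of 2-fold or more in each direction and line. The 3 genes nearest to SERPINE2 in their differences were named; for PLAT and MMP1 none are given, because of readings below the filter. Alternatives were other probe set rules, scalings, filters, folds and limma settings. No protein sequences were used here.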

Additional observations from a re-analysis of the deposited data

Results flagged for a closer look

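In 3 genes the single resistant array of one line lay on the other side of its parent from that of the other line: TIMP2, at 2.90 in HT29 and -3.23 in Colo205, MMP1, at 3.78 in HT29 and -0.38 in Colo205, and MMP14, at 0.23 in HT29 and -0.0051 in Colo205. Whether the lines differ was not tested, since each line has 1 array of each kind. For MMP14 both values are within the pooled probe set SD of 0.30, and its Colo205 value was 0.09 under quantile normalization, so that the lines then had the same sign. For MMP1 both Colo205 readings lie below the filter value.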

How the results depend on the processing

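The limma count of 0 of these genes past the adjusted threshold held under each setting run: no replicate block, a mean-variance trend, a robust trend, array centring, quantile normalization, no filter and a filter on the mean. The unadjusted count was 4 under each of these except without the block, where it was 2. Without a filter 9 genes were tested, PLAT among them, and with the filter on the mean 7 were tested. Over all genes the unadjusted count was 928 with the block and 131 without it. The count of genes differing by line, 3, ran from 2 without a filter to 4 with a mean-variance trend, centring or the filter on the mean, and was 3 with a robust trend.

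Centring and quantile normalization moved 0 of the 16 differences by more than the probe set SD, but quantile normalization turned MMP14 in Colo205 to 0.09. The median over all probe sets moved 6 of the 16, among them TIMP2 in Colo205 to -2.76 and PLAUR in HT29 to 1.49. Another rule for choosing the probe set moved 1, TIMP2 in Colo205, and setting readings below the filter value to it moved 3. With the median over all probe sets, the count 2-fold or more higher in resistant Colo205 was 1, PLAU, since SERPINE2 was at 0.97 and PLAU at 1.04. SERPINE2 was then at 2.33 in HT29, where its dim second probe set enters the median. Setting readings below the filter value to it, chosen after seeing the data, left the counts at 2-fold as they were. The filter on the mean left out MMP1 and gave 4 higher in HT29 in place of 5. At 1.5-fold the counts were 7 higher in HT29 and 3 in Colo205.

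With 1 line left out the mean became the other line's value, with no test. It ran from -0.38 to 3.78 for MMP1, from -0.0051 to 0.23 for MMP14 and from -3.23 to 2.90 for TIMP2, so that the sign turned. For the other 5 genes the sign held in the values as deposited. No direction can be read for MMP1 in Colo205 or PLAU in HT29, where both readings lie below the filter.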
